A study of Homo sapiens with 8 samples.

Results

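The 31 genes described here encode the steps that bring glucose into the cell, break it down to pyruvate, and pass pyruvate on to lactate or to the mitochondrion. They were taken by name from a list that covers glucose uptake, the enzymes of glycolysis, lactate dehydrogenase, lactate and pyruvate transport, and the kinases and phosphatases of pyruvate dehydrogenase (PDH). All 31 were found among the 62826 genes of the deposited gene tables. RNA was sequenced from LUHMES cells, a human line from embryonic midbrain that divides under a v-myc transgene and turns into neurons once tetracycline shuts the transgene off. In the treated group, wild-type LUHMES neurons differentiated for 6 days were exposed for 8 h to 25 µM antimycin A with 10 µM oligomycin. In the vehicle group, neurons of the same genotype and differentiation time received DMSO. The medium of all cells held 1 µg/mL tetracycline, 2 ng/mL GDNF, 1 mM dbcAMP and 2 mM glutamine. Each group has 4 libraries, which carry differentiation numbers 2 to 5 and are called replicates 2 to 5, and all come from 1 cell line.

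Glycolysis turns glucose into pyruvate and yields ATP without oxygen. Antimycin A blocks respiratory complex III and oligomycin blocks the ATP synthase, so a neuron under both has glycolysis as its main route to ATP. Each turn of the pathway uses up NAD+, which lactate dehydrogenase restores by reducing pyruvate to lactate, and lactate leaves through monocarboxylate transporters. Inside the mitochondrion PDH turns pyruvate into acetyl-CoA, and PDH kinases switch it off while PDH phosphatases switch it on. Most steps have several isoenzymes, encoded by different genes, with different kinetics and tissue patterns. The comparison asks which of these genes and isoenzymes changed when respiration and ATP synthesis were blocked together.

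The libraries held 93.8 to 109 M estimated reads in treated cells and 93.7 to 110.0 M in vehicle cells, and the 31 genes took 0.609 to 0.652% of them in treated cells and 0.520 to 0.671% in vehicle cells. Vehicle replicate 2 stood apart from the other 7 libraries. Its mtDNA-encoded genes took 13.4% of reads, against 4.82 to 6.74% in treated libraries and 3.90 to 5.23% in the other vehicle libraries. It was below the mean of the other vehicle libraries for 23 of the 31 genes, and its median difference from that mean over all 31 was -0.24 on the log2 scale of CPM (reads of a gene scaled to library size). Of 12 dopaminergic markers, SLC18A2, FOXA2, LMX1A, LMX1B and ALDH1A1 were under 0.1 TPM (reads scaled to transcript length and library size) in all libraries. SLC6A3 had 307 to 341 TPM in treated and 296 to 414 TPM in vehicle libraries. TH was higher in every treated library, with 21.3 to 28.2 TPM against 7.32 to 13.0 TPM in vehicle libraries. EN1 and the rarer DDC and PITX3 were lower. General neuron markers summed to 4131 to 4249 TPM in treated and 4598 to 6074 TPM in vehicle libraries. RBFOX3 (124 to 140 TPM in treated, 63.8 to 71.5 TPM in vehicle) and SNAP25 were higher in every treated library. STMN2 and GAP43 were lower, and the groups overlapped for the rest. Markers of dividing cells summed to 111 to 121 TPM in treated and 157 to 239 TPM in vehicle libraries, and 6 astrocyte markers to 30.0 to 33.0 TPM in treated and 21.4 to 26.1 TPM in vehicle libraries, with GFAP and AQP4 under 0.1 TPM throughout. Of the 2 astrocyte markers above 1 TPM, SLC1A3 was higher in every treated library and GJA1 lower, SLC1A3 with 14.1 to 15.7 TPM in treated and 1.74 to 2.32 TPM in vehicle libraries, and GJA1 with 14.5 to 17.3 TPM in treated and 19.1 to 23.6 TPM in vehicle libraries. The part of these shifts in the results was not tested, and in bulk RNA fewer cells of a type and less RNA per cell cannot be told apart.

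The pathway did not move in 1 direction. By edgeR's quasi-likelihood test, 8 of the 31 genes were higher in treated neurons and 10 were lower at a Benjamini-Hochberg adjusted p under 0.05, and 13 did not pass. Among all 19785 genes tested, 57.9% passed, 27.7% higher and 30.2% lower, so the share of the 31 that passed (58.1%) was near that of the transcriptome. The higher genes were those of glucose uptake and phosphorylation (SLC2A3, HK1, HK2), of the middle of the pathway (ALDOA, TPI1, GAPDH), a pyruvate and lactate importer (SLC16A7) and a PDH phosphatase (PDP2). The lower genes were GPI, PFKP and the regulator PFKFB3 in upper glycolysis, LDHA, the transporters SLC16A1 and SLC16A3, the kinases PDK1, PDK2 and PDK3, and the phosphatase PDP1. Their log2 fold changes, treated over vehicle, ran from -0.67 to 0.97. Sizes were modest. No gene that passed had a log2 fold change of 1 or more in size, which 17.3% of all genes had, and 8 (25.8%) had 0.5 or more, against 38.1% of all genes. The median size was 0.27, against 0.41 over all genes. Without vehicle replicate 2, 8 genes were higher and 12 lower, against 30.6% and 32.4% of 20184 genes, 62.9% in all. PFKM (-0.23) and PFKFB4 (-0.20) were the genes gained. With library totals as the only scaling, 5 were higher and 11 lower, against 21.6% and 35.5% of all genes. CPM values of the groups did not overlap for 18 genes, 9 in each direction, and 53.4% of all genes showed such a gap, 25.3% with treated higher and 28.2% with treated lower.

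**Figure D1:**
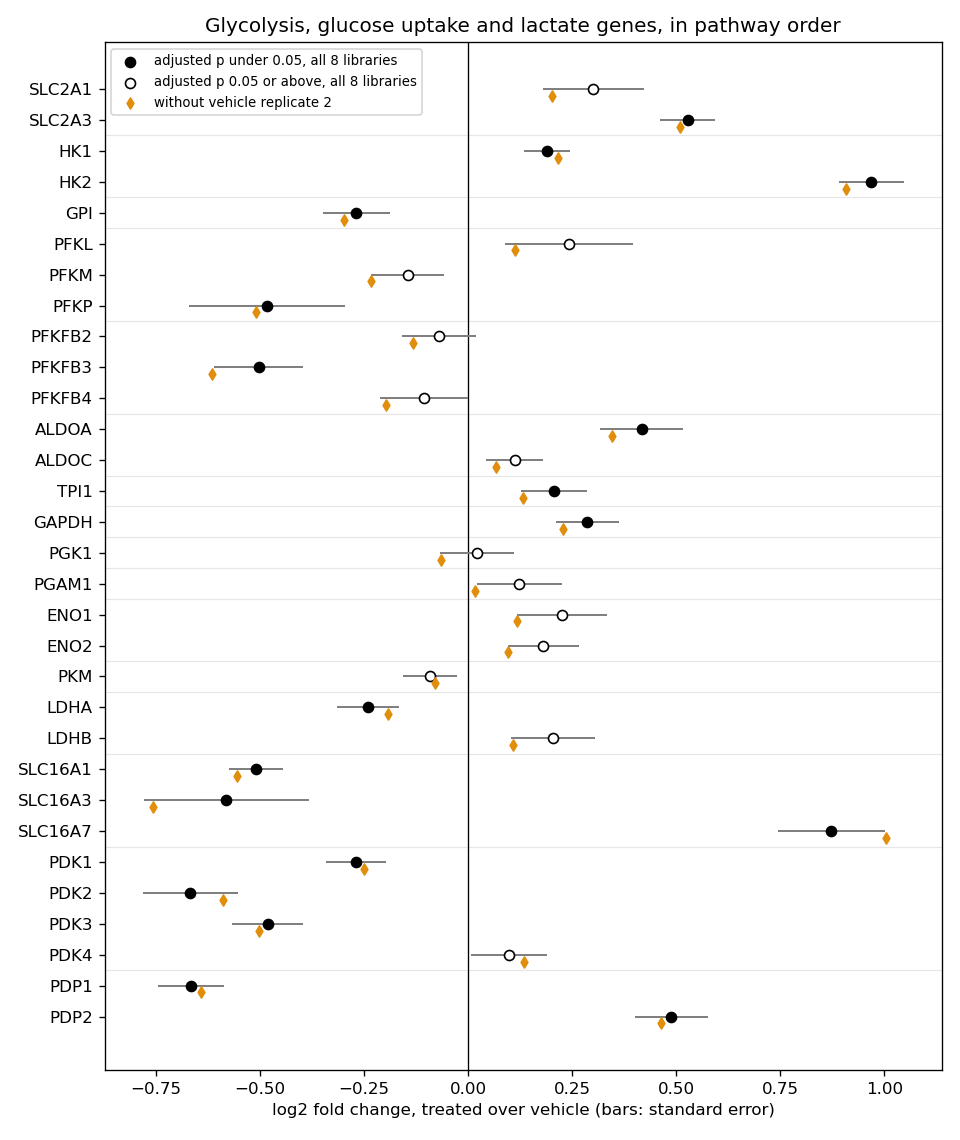
The log2 fold change of each of the 31 genes, treated over vehicle, from edgeR, is plotted in pathway order with its standard error (bars, n = 4 per group); filled points pass an adjusted p of 0.05 and diamonds give the value without vehicle replicate 2. With all libraries, values run from -0.67 to 0.97, positive from SLC2A1 to HK2 and from ALDOA to ENO2, and mostly negative from GPI to PFKFB4.

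Per transcript length, the order of the steps was kept between groups at its upper end. GAPDH, the enzyme that uses NAD+, was the most abundant member at 2932 ± 55.5 TPM in treated and 2514 ± 476 TPM in vehicle neurons (SD, n = 4 each). The 2 lactate dehydrogenase genes came next, with a summed 1242 ± 73.1 TPM in treated and 1247 ± 189 TPM in vehicle neurons. PFKP was the least abundant member, at 0.926 ± 0.232 TPM in treated and 1.25 ± 0.281 TPM in vehicle neurons. The step sums that separated the groups without overlap were those of hexokinase, aldolase and GAPDH, higher in treated cells, and of glucose-6-phosphate isomerase, PFKFB enzymes, pyruvate kinase, PDH kinases and PDH phosphatases, lower in treated cells. Monocarboxylate transporters summed to 89.5 to 94.3 TPM in treated libraries, against 141 to 153 TPM in vehicle replicates 3 to 5 and 89.3 TPM in vehicle replicate 2.

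**Figure D2:**
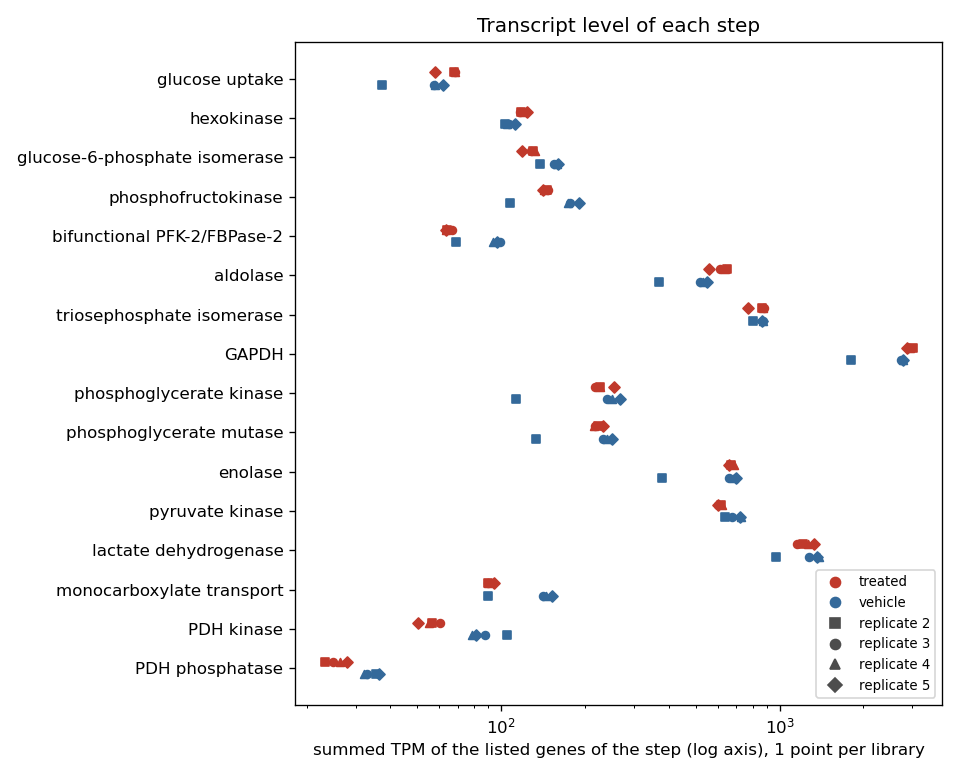
Summed TPM of the listed genes of each step is plotted on a log axis, with 1 point per library, treated above vehicle and a marker shape per replicate. Vehicle replicate 2 (squares) lies left of the other vehicle libraries at most steps, as for GAPDH with 1801 TPM against 2725 to 2767 TPM.

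Glucose enters neurons mainly through SLC2A3 (GLUT3), a high-affinity carrier, and SLC2A1 (GLUT1), the widespread basal carrier. SLC2A3, on chromosome 12 from 7919230 to 7936275 (hg38), had 51.3, 51.1, 49.1 and 49.4 CPM in treated replicates 2 to 5, against 33.7, 38.4, 33.2 and 34.1 CPM in vehicle replicates 2 to 5. All treated libraries lay above all vehicle libraries, and the log2 fold change was 0.53 ± 0.0657 (SE, adjusted p = 7.57e-05). SLC2A1 averaged 42.1 ± 5.05 CPM in treated and 34.2 ± 5.03 CPM in vehicle neurons (SD, n = 4 each). Its groups overlapped, with treated replicate 5 at 34.9 CPM, and its log2 fold change of 0.30 missed the threshold (adjusted p = 0.0558), which it passed in 4 of 16 alternative settings (lowest adjusted p 0.018). SLC2A3 made up 41.8 ± 3.67% of the summed TPM of both carriers in treated and 37.0 ± 3.43% in vehicle neurons, a difference that did not pass (exact permutation p = 0.143).

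Hexokinase commits glucose to the cell by phosphorylating it. HK1 is the main hexokinase of the brain, and HK2 is an inducible form found mostly in muscle, fat and growing cells. HK2 showed the largest rise of the 31 genes, with 34.95, 35.4, 33.4 and 36.1 CPM in treated replicates 2 to 5, against 15.7, 17.6, 19.6 and 18.6 CPM in vehicle replicates 2 to 5. All treated libraries lay far above all vehicle libraries, with a log2 fold change of 0.97 ± 0.0783 (SE, adjusted p = 4.11e-06). HK1 averaged 206 ± 2.74 CPM in treated and 180.2 ± 7.64 CPM in vehicle neurons, a small rise of 0.19 (adjusted p = 0.0129) that did not pass in 3 of 17 alternative settings, among them library totals as the only scaling (0.09, adjusted p = 0.144). HK1 remained the main form. The share of HK2 in the summed TPM of both was 9.61 ± 0.387% in treated and 5.83 ± 1.09% in vehicle neurons, with no overlap between libraries.

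Isoenzyme shares such as this were compared for 20 genes or forms with an exact permutation test, two-sided, over the 70 ways to split 8 libraries, and the shares within a step sum to 100, so they are not independent. The smallest p that such a test can give is 0.0286. All 13 shares whose groups did not overlap reached it, with an adjusted p of 0.044, and the other 7 did not pass. With any vehicle library or treated replicate 5 left out, no share passed the adjusted threshold (lowest adjusted p 0.0519), although 8 to 11 of the 20 kept an unadjusted p under 0.05. With 4 libraries a group the test cannot go lower. Whether a share passes after adjustment rests on its groups not overlapping and on how many of the 20 shares reach that lowest p. In the settings where none passed, groups still did not overlap for 13 or 14 of the 20 shares.

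The promoters of the genes with the largest rise and the largest fall, HK2 and PDK2, are shown because both genes changed in every treated library. Both are RefSeq windows on GRCh38.p14, plus strand, from 250 bases before to 50 bases after the annotated start, at chr2:74833877-74834176 and chr17:50094487-50094786. Capitals mark matches to ACGTG, the core of the hypoxia response element, which here lies on the minus strand and so reads CACGT.
HK2: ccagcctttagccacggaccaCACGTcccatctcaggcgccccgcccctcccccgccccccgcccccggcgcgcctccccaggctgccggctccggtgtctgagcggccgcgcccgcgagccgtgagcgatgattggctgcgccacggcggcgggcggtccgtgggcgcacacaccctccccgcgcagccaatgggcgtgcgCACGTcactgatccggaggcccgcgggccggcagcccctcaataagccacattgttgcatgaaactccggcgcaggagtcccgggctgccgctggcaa
PDK2: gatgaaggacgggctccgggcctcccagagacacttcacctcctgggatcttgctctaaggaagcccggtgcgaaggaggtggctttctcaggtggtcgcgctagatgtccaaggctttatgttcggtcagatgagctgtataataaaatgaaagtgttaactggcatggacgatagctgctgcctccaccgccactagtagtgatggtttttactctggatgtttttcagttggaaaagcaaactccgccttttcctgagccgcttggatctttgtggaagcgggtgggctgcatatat
HK2 held 2 matches and PDK2 none. Windows were found for 27 of the 31 genes, all but SLC2A3, PFKFB2, SLC16A1 and PDP1. ACGTG lay on either strand in 10 of the 27 (37.0%), namely HK2, GPI, ALDOA, ALDOC, GAPDH, PGK1, ENO2, LDHA, PDK3 and PDP2, against 21.6% of 27305 windows. Of these, HK2, ALDOA, GAPDH and PDP2 were higher in treated neurons, GPI, LDHA and PDK3 were lower, and ALDOC, PGK1 and ENO2 did not pass. CACGTG, an E-box that contains ACGTG, lay in 4 of the 27 (14.8%) and in 7.43% of all windows. TGATGNAA, the C/EBP-ATF composite element, lay in 1 of the 27 (3.70%), that of HK1, and in 3.67% of all windows. TGACNNNGC, the core of the antioxidant response element, lay in 4 of the 27 (14.8%), those of PFKL, ALDOC, GAPDH and PKM, and in 13.6% of all windows.

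Upper glycolysis beyond hexokinase, from GPI to the PFKFB genes, held 3 genes of 7 that fell and none that rose, against 30.2% of all genes lower and 27.7% higher. GPI, which turns glucose-6-phosphate into fructose-6-phosphate, averaged 189.6 ± 19.7 CPM in treated and 229 ± 9.31 CPM in vehicle neurons (log2 fold change -0.27, adjusted p = 0.0154). Phosphofructokinase, the main control point of the pathway, is encoded by PFKM (muscle form), PFKL (liver form) and PFKP (platelet form). PFKM had 144 to 152 CPM in treated libraries, against 174 to 175 CPM in vehicle replicates 3 to 5 and 134 CPM in vehicle replicate 2. With all libraries and all transcripts it did not pass (-0.15, adjusted p = 0.179). It passed as lower without vehicle replicate 2 (-0.23, adjusted p = 0.00129) and also with coding transcripts alone. PFKL had 41.9 to 61.3 CPM in treated and 33.7 to 51.0 CPM in vehicle libraries and did not pass (0.24, adjusted p = 0.203, and 0.11 without vehicle replicate 2). PFKP, at 1.08 ± 0.259 CPM in treated and 1.51 ± 0.216 CPM in vehicle neurons, was at the threshold (-0.48, adjusted p = 0.0477) and missed it in 8 of 17 alternative settings. The mix of forms shifted. PFKM made up 74.2 ± 1.90% of the step's TPM in treated and 78.3 ± 0.858% in vehicle neurons, and PFKL 25.1 ± 1.79% in treated and 20.9 ± 0.789% in vehicle neurons, both without overlap. The call on the PFKM share was lost in 6 of 10 alternatives (adjusted p up to 0.163), and that on the PFKL share in 5 of 10 (up to 0.0879).

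The PFKFB genes encode bifunctional enzymes that make and remove the strongest allosteric activator of phosphofructokinase, and PFKFB3 is the form with the highest kinase activity. PFKFB3 had 100.3, 99.5, 98.2 and 90.5 CPM in treated replicates 2 to 5, against 105, 149.7, 147 and 148 CPM in vehicle replicates 2 to 5. Vehicle replicate 2 lay close to the treated libraries and the other vehicle libraries well above them. The log2 fold change was -0.50 ± 0.108 (SE, adjusted p = 0.00253), and -0.61 without vehicle replicate 2. PFKFB2, the heart form, had 21.3 to 25.7 CPM in treated and 21.6 to 27.2 CPM in vehicle libraries, and PFKFB4, a testis and hypoxia form, 12.4 to 14.9 CPM in treated and 12.2 to 16.4 CPM in vehicle libraries. Neither passed (adjusted p = 0.523 and 0.417), and PFKFB2 was at -0.07, or -0.13 without vehicle replicate 2. The share of PFKFB3 in the step was 70.7 ± 0.747% of TPM in treated and 77.5 ± 1.01% in vehicle neurons. The share of PFKFB2 was higher, at 13.5 ± 0.714% in treated and 9.55 ± 0.744% in vehicle neurons, and so was that of PFKFB4, at 15.8 ± 0.327% in treated and 13.0 ± 0.330% in vehicle neurons. PFKFB2 overlaps YOD1 on the opposite strand, which held 263% of its reads, and PFKM overlaps SENP1, which held 23.3%. The sources used here do not say whether strand was used in counting.

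**Figure D3:**
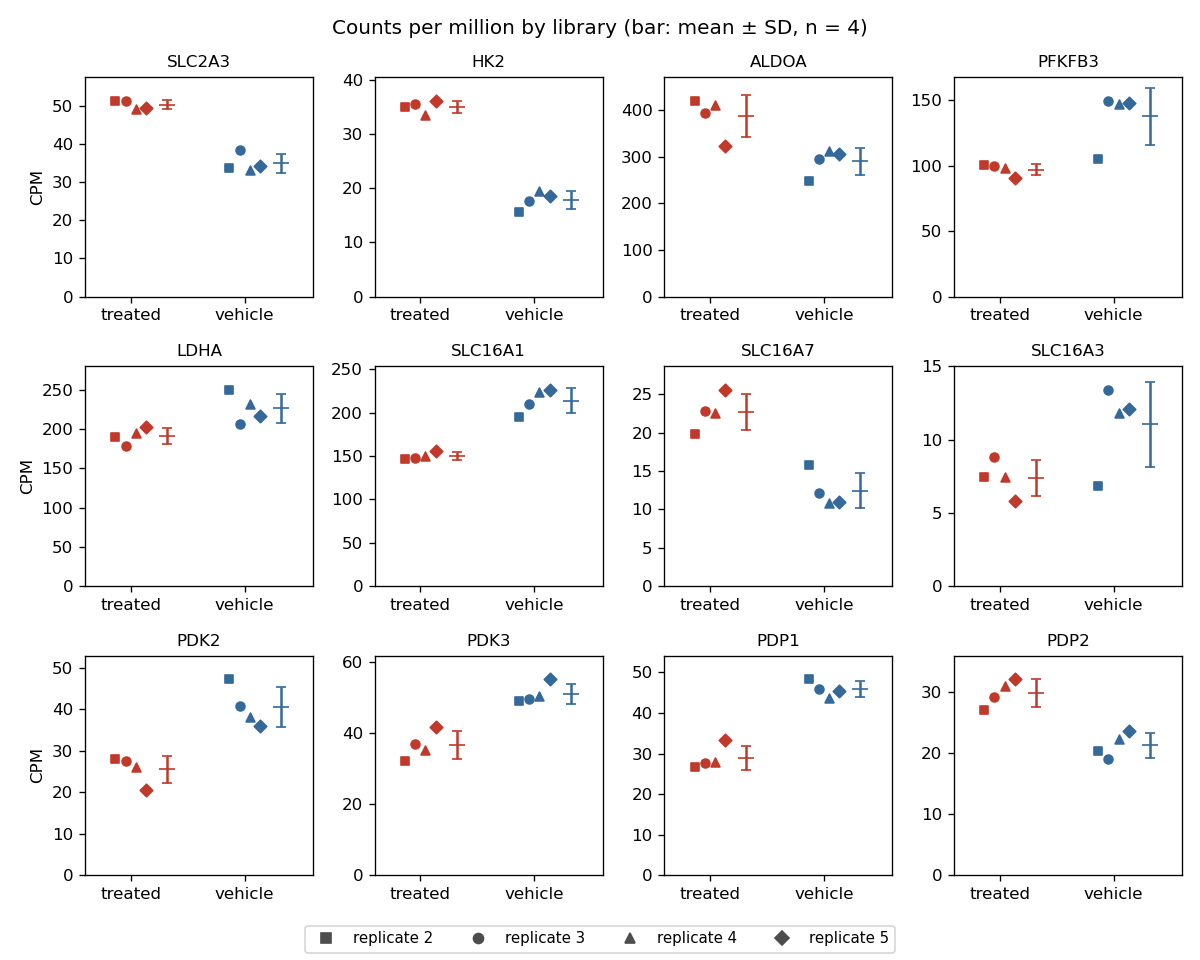
CPM of 12 of the genes is plotted for each library, treated left of vehicle, with a marker shape per replicate and the group mean ± SD (n = 4) beside the points. SLC2A3, HK2, ALDOA, SLC16A7 and PDP2 lie higher in treated libraries, the other 7 genes lower, and SLC16A3 overlaps between groups through vehicle replicate 2.

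In the middle of the pathway ALDOA, TPI1 and GAPDH rose. ALDOA, the muscle and general form of aldolase, had 419.8, 394, 411 and 323 CPM in treated replicates 2 to 5, against 248, 294, 312 and 306 CPM in vehicle replicates 2 to 5. The lowest treated library lay just above the highest vehicle library, and the log2 fold change was 0.42 ± 0.100 (SE, adjusted p = 0.00502). ALDOC, the brain form, had 25.6 ± 1.06 CPM in treated and 23.6 ± 1.44 CPM in vehicle neurons and did not pass (0.11, adjusted p = 0.188, and 0.07 without vehicle replicate 2). The share of ALDOC in the step was small, at 5.29 ± 0.346% in treated and 6.26 ± 0.156% in vehicle neurons. GAPDH, often used as a reference gene, had 1715 to 1929.8 CPM in treated libraries, against 1538 to 1610.5 CPM in vehicle replicates 3 to 5 and 1325 CPM in vehicle replicate 2. Its log2 fold change was 0.29 ± 0.0756 (SE, adjusted p = 0.00816), and 0.19 with library totals as the only scaling (adjusted p = 0.108). TPI1, which interconverts the triose phosphates, averaged 490.0 ± 11.5 CPM in treated and 425 ± 44.0 CPM in vehicle neurons. Its rise of 0.21 (adjusted p = 0.0452) did not pass in 11 of 17 alternative settings, and was 0.05 with an offset for effective length and 0.13 without vehicle replicate 2.

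The lower part of glycolysis, from phosphoglycerate kinase to pyruvate kinase, held no gene that passed with TMM scaling. PGK1, which makes the first ATP of the payoff phase, averaged 275 ± 7.01 CPM in treated and 271 ± 34.1 CPM in vehicle neurons. Phosphoglycerate mutase PGAM1 averaged 201 ± 4.35 CPM in treated and 185 ± 28.01 CPM in vehicle neurons. Enolase is encoded by the general ENO1, at 499 ± 23.3 CPM in treated and 427 ± 67.4 CPM in vehicle neurons, and by the neuronal ENO2, at 124 ± 1.49 CPM in treated and 109.8 ± 13.1 CPM in vehicle neurons. ENO2 groups did not overlap, yet its adjusted p was 0.0921. Its share of the step was 16.9 ± 0.718% of TPM in treated and 17.3 ± 1.13% in vehicle neurons (exact permutation p = 0.543). For PGK1, PGAM1, ENO1 and ENO2 vehicle replicate 2 was the lowest of the 8 libraries, and without it their log2 fold changes were -0.07, 0.02, 0.12 and 0.10.

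Pyruvate kinase comes from 1 gene here, PKM, whose transcripts carry either of a pair of mutually exclusive exons of equal length. The upstream exon gives PKM1, the form of adult muscle and mature neurons, and the downstream exon gives PKM2, the form of embryonic and growing cells. The pair is printed because the reads of the gene are divided between forms by these bases. PKM1 has chr15:72203022-72203188 and PKM2 has chr15:72202454-72202620 (hg38, GENCODE release 29, minus strand), each of 167 bases and coding, and capitals mark the positions at which the exons differ.
PKM1: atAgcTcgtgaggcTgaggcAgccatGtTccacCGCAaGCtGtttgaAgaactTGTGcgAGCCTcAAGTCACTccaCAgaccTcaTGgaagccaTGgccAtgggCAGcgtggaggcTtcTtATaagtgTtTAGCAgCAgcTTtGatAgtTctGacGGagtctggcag
PKM2: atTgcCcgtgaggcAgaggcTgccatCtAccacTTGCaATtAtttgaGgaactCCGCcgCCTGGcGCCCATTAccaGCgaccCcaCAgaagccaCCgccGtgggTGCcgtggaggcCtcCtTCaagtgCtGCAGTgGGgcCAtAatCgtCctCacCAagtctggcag
The exons share 105 of 167 positions (62.9%). PKM as a whole had 618 to 696 CPM in treated and 668 to 738 CPM in vehicle libraries and did not pass (-0.09, adjusted p = 0.244), but was lower with library totals as the only scaling (-0.19, adjusted p = 0.0265). PKM1 transcripts had 70.5, 76.2, 76.1 and 78.7 TPM in treated replicates 2 to 5, against 55.9, 82.2, 87.2 and 88.7 TPM in vehicle replicates 2 to 5. PKM2 transcripts had 468, 448, 463 and 441 TPM in treated replicates 2 to 5, against 431, 507, 541 and 536 TPM in vehicle replicates 2 to 5. The PKM1 share of both forms was 14.2 ± 0.860% in treated and 13.4 ± 1.27% in vehicle neurons, with overlapping libraries (exact permutation p = 0.343). PKM2 was the main form in both groups. PKM-202, the main PKM2 transcript, held 74.0 ± 1.10% of the gene's TPM in treated and 71.7 ± 4.92% in vehicle neurons. A shorter PKM1 transcript, PKM-205, held 7.11 ± 0.741% in treated and 7.11 ± 0.481% in vehicle neurons. A retained-intron transcript, PKM-208, held 1.32 to 3.25% in treated libraries, 1.19 to 1.47% in vehicle replicates 3 to 5 and 16.03% in vehicle replicate 2.

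Lactate dehydrogenase is a tetramer of A and B subunits. LDHA subunits favour making lactate and LDHB subunits favour turning it back to pyruvate. LDHA had 189.6, 178, 196 and 203 CPM in treated replicates 2 to 5, against 250.05, 206, 232 and 217 CPM in vehicle replicates 2 to 5. The groups came close without overlap, and the log2 fold change was -0.24 ± 0.0738 (SE, adjusted p = 0.0175), or -0.21 without treated replicate 3, where it did not pass (adjusted p = 0.0608). LDHB had 580.1 to 678 CPM in treated and 437 to 609 CPM in vehicle libraries and did not pass (0.20, adjusted p = 0.110, and 0.11 without vehicle replicate 2). The share of LDHB in the step's TPM was 79.6, 79.8, 78.8 and 80.6% in treated replicates 2 to 5, against 69.0, 75.9, 75.3 and 75.8% in vehicle replicates 2 to 5. LDHB was the main subunit gene in every library and its share was higher in every treated library. The difference was 5.67 percentage points, and 4.02 without vehicle replicate 2.

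Monocarboxylate transporters carry lactate and pyruvate across the cell membrane. SLC16A1 (MCT1) is the widespread form, SLC16A3 (MCT4) the export form of strongly glycolytic cells, and SLC16A7 (MCT2) the high-affinity form of neurons. SLC16A1 had 147, 148, 149.8 and 156 CPM in treated replicates 2 to 5, against 195, 210.1, 224 and 226 CPM in vehicle replicates 2 to 5. Every treated library was well below every vehicle library (log2 fold change -0.51 ± 0.0640 SE, adjusted p = 7.93e-05). SLC16A7, on chromosome 12 from 59596067 to 59789855, moved the other way, with 19.9, 22.8, 22.6 and 25.6 CPM in treated replicates 2 to 5, against 15.7, 12.2, 10.8 and 11.0 CPM in vehicle replicates 2 to 5. Its log2 fold change was 0.87 ± 0.128 (SE, adjusted p = 0.000226), and 1.00 without vehicle replicate 2, the highest vehicle library. SLC16A3 had 7.47, 8.80, 7.48 and 5.80 CPM in treated replicates 2 to 5, against 6.80, 13.4, 11.8 and 12.1 CPM in vehicle replicates 2 to 5. Only vehicle replicate 2 overlapped the treated libraries, and the log2 fold change of -0.58 (adjusted p = 0.028) was -0.76 without it. With any of the other vehicle libraries or treated replicate 2, 4 or 5 left out, SLC16A3 did not pass (adjusted p up to 0.0815). SLC16A3 lies opposite CSNK1D, which held 2179% of its reads, so this value is uncertain where the counting did not use strand. Per length SLC16A7 stayed the rarest of the transporters, with 4.53 ± 0.306% of the step's TPM in treated and 1.86 ± 0.498% in vehicle neurons, and SLC16A1 the main form with 87.9 ± 0.857% in treated and 90.1 ± 1.25% in vehicle neurons. The share of SLC16A7 passed and that of SLC16A1 did not (exact permutation p = 0.0571).

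At the pyruvate dehydrogenase switch, 3 of the 4 kinase genes fell, against 30.2% of all genes. PDK2, the widespread kinase and the largest fall of the 31 genes, lies on chromosome 17 from 50094737 to 50112152 and had 27.97, 27.5, 26.0 and 20.7 CPM in treated replicates 2 to 5, against 47.3, 40.7, 38.2 and 36.0 CPM in vehicle replicates 2 to 5. The groups were well apart (-0.67 ± 0.114 SE, adjusted p = 0.000616). It overlaps SAMD14 on the opposite strand, which held 125% of its reads. PDK3 had 32.1 to 41.6 CPM in treated and 49.0 to 55.2 CPM in vehicle libraries (-0.48 ± 0.0852 SE, adjusted p = 0.000761). PDK1, a hypoxia-inducible kinase, had 20.4 to 24.3 CPM in treated and 25.4 to 27.5 CPM in vehicle libraries (-0.27, adjusted p = 0.00918), and with an offset for effective length it did not pass (-0.14, adjusted p = 0.0704). PDK4, the fasting-induced kinase, averaged 5.19 ± 0.374 CPM in treated and 4.85 ± 0.317 CPM in vehicle neurons and did not pass (0.10, adjusted p = 0.383). Together the 4 kinases summed to 50.2 to 60.4 TPM in treated and 78.4 to 105 TPM in vehicle libraries. PDK2 made up 65.9 ± 4.18% of that sum in treated and 73.7 ± 6.32% in vehicle neurons, PDK1 18.7 ± 2.67% in treated and 13.8 ± 3.16% in vehicle neurons, and PDK4 5.50 ± 0.273% in treated and 3.30 ± 0.717% in vehicle neurons. The call on the PDK2 share was lost under each of 9 alternatives, with a highest treated value of 68.4% next to a lowest vehicle value of 68.9%.

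The 2 phosphatase genes moved in opposite directions. PDP1, the calcium-stimulated form, on chromosome 8 from 93857807 to 93926066, had 26.7, 27.6, 28.01 and 33.2 CPM in treated replicates 2 to 5, against 48.4, 46.0, 43.7 and 45.4 CPM in vehicle replicates 2 to 5 (-0.67 ± 0.0799 SE, adjusted p = 5.80e-05). PDP2, the insulin-sensitive form, on chromosome 16 from 66878589 to 66895754, had 27.1, 29.2, 31.1 and 32.2 CPM in treated replicates 2 to 5, against 20.3, 19.0, 22.3 and 23.6 CPM in vehicle replicates 2 to 5 (0.49 ± 0.0876 SE, adjusted p = 0.000843). Neither gene's groups overlapped. The share of PDP2 in their summed TPM was 40.02, 43.5, 44.5 and 40.7% in treated replicates 2 to 5, against 18.5, 20.6, 24.8 and 27.97% in vehicle replicates 2 to 5. This difference of 19.2 percentage points was the largest of the 20 shares, and it stayed between 17.7 and 20.8 points under the 10 alternatives. The summed TPM of both was 25.6 ± 2.07 in treated and 34.3 ± 2.04 in vehicle neurons.

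**Figure D4:**
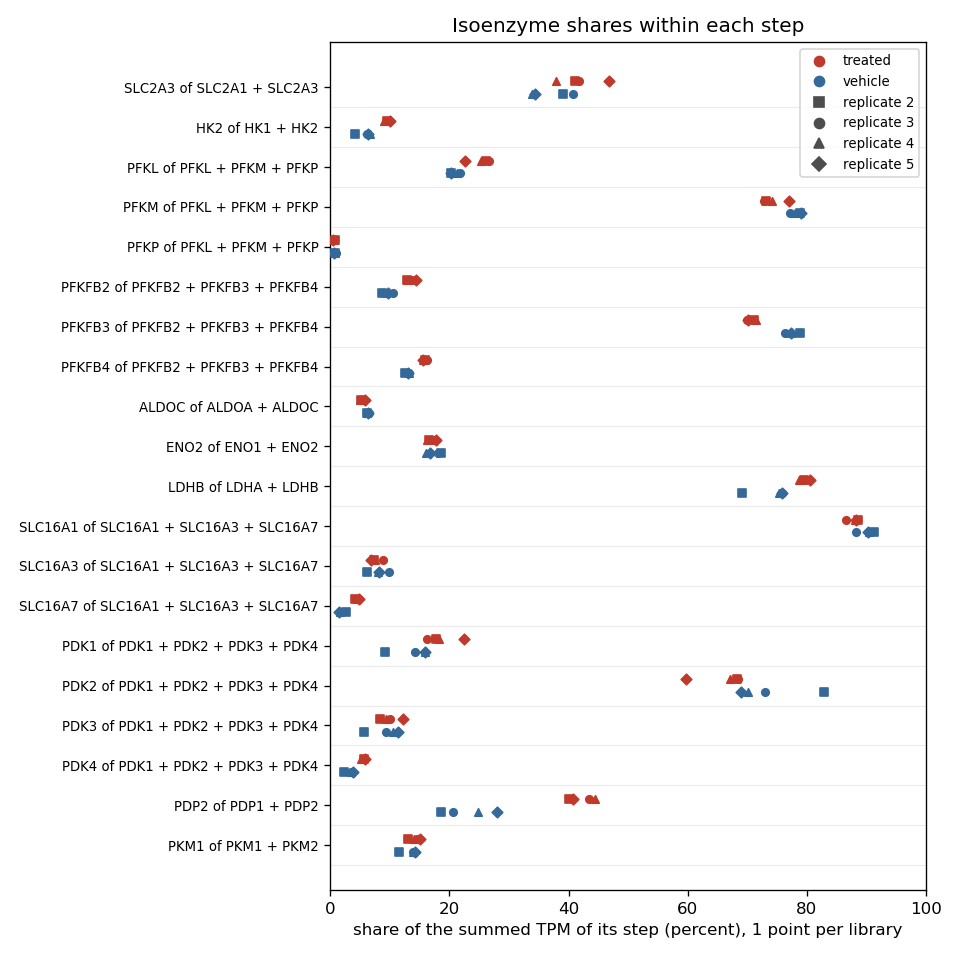
The share of each isoenzyme in the summed TPM of its step is plotted in percent, with 1 point per library, treated above vehicle and a marker shape per replicate. PDP2 shows the widest gap, 40.02 to 44.5% in treated and 18.5 to 27.97% in vehicle libraries, while PKM1 and ENO2 overlap.

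Transcript make-up within a gene was tested with diffSpliceDGE for 28 of the 31 genes, and 4 passed, GPI, SLC16A1, LDHA and PDK1, against 8.6% of 11691 genes. Without vehicle replicate 2, 5 of 27 passed, against 12.9% of 11542 genes. In GPI and SLC16A1 the transcripts that moved were rare. GPI-202 held 0 to 0.0347% of the gene's TPM in treated libraries, 0.0892 to 0.165% in vehicle replicates 3 to 5 and 0.927% in vehicle replicate 2, and GPI did not pass if treated replicate 3 was left out (adjusted p = 0.0726). SLC16A1-203 held 0.249 ± 0.172% in treated and 0.0211 ± 0.0244% in vehicle neurons, and its gene did not pass without treated replicate 3, treated replicate 5 or vehicle replicate 4. In LDHA it was LDHA-204, a coding transcript, with 0.784 to 4.66% in treated libraries, 4.22 to 5.85% in vehicle replicates 3 to 5 and 18.9% in vehicle replicate 2, and LDHA did not pass without that library (adjusted p = 0.113) or without treated replicate 2, 4 or 5. In PDK1 it was PDK1-205, annotated as a target of nonsense-mediated decay, with 7.77, 4.68, 4.94 and 3.85% of the gene's TPM in treated replicates 2 to 5, against 0.960, 0, 0.396 and 0.789% in vehicle replicates 2 to 5. Every treated library lay above every vehicle library, and the gene's adjusted p was 0.0198, or 0.00178 without vehicle replicate 2. PDK1 did not pass with any 1 of the treated libraries left out. Nor did it pass without vehicle replicate 3 (adjusted p = 0.107) or 4 (adjusted p = 0.0539), or with a block for the differentiation number (adjusted p = 0.104). With 1 library left out the filter still asked for 10 reads in 4 libraries. A transcript rare in vehicle libraries, such as PDK1-205, can then leave the test with a treated library. Whether it did was not examined, so the settings without a treated library cannot decide on its shift. The settings without vehicle replicate 3 or 4 and the block keep all treated libraries. PFKFB4 came next, with PFKFB4-202 at 2.83 ± 1.21% in treated and 0.436 ± 0.385% in vehicle neurons (adjusted p = 0.0706). The test takes the division of reads among transcripts as given.

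In the authors' deposited table all 31 genes are listed, with 6 higher and 10 lower at a false discovery rate under 0.05, against 57.7% of its 12898 genes. Calls differed from those above for HK1, TPI1 and GAPDH, which do not pass in the authors' deposited table, and for SLC2A1, which does (log2 fold change 0.31, false discovery rate 0.0273). The fold changes of the authors' deposited table lay within 0.0737 of those above for every gene.

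Of 34 other isoenzymes, transporters and transporter partners, 19 were tested, 4 were higher and 4 lower, with a median log2 fold change of -0.18. Among all genes 27.7% were higher and 30.2% lower. Muscle enolase ENO3 was higher at 86.0 ± 2.66 CPM in treated and 50.6 ± 9.03 CPM in vehicle neurons (0.77). EMB, embigin, which brings monocarboxylate transporters to the membrane, was lower at 5.50 ± 0.370 CPM in treated and 15.1 ± 1.27 CPM in vehicle neurons (-1.45). BSG, the far more abundant partner in the list, had 711 ± 77.7 CPM in treated and 638 ± 65.1 CPM in vehicle neurons. It did not pass (0.16, adjusted p = 0.202), and is named after its values were seen. BPGM, which makes and removes bisphosphoglycerate, was lower by -0.68.

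At the entry of pyruvate into the mitochondrion, 4 of 9 genes were higher and 3 lower (median -0.02), against 27.7% and 30.2% of all genes. PCK2, the mitochondrial enzyme that makes phosphoenolpyruvate from oxaloacetate, was higher, with 29.8 ± 3.74 CPM in treated and 0.993 ± 0.142 CPM in vehicle neurons (4.90 ± 0.136 SE, adjusted p = 3.63e-09). Pyruvate carboxylase PC was higher at 28.4 ± 3.10 CPM in treated and 19.0 ± 3.76 CPM in vehicle neurons (0.58). The PDH subunits PDHB (-0.44) and PDHA1 (-0.31) were lower. Among the other listed genes of the PDH complex, PDHX was higher (0.20, adjusted p = 0.0215) and DLD lower (-0.33, adjusted p = 0.00224). DLAT did not pass (-0.15, adjusted p = 0.0784). PDHX, DLD and DLAT are named after their values were seen. PCK1, the cytosolic counterpart of PCK2, had 0.764 to 1.04 CPM in treated libraries and 0 to 0.0181 CPM in vehicle libraries, too low in vehicle for a fold change. PCK1 passed the low-count filter only through its treated libraries, so counting it as higher below adds nothing to these values. Of 6 tested genes of gluconeogenesis and fructose handling, PCK1 and TIGAR were higher and SORD (-0.63) and G6PC3 (-0.45) lower (median -0.11), against 27.7% and 30.2% of all genes. TIGAR, a fructose bisphosphatase, was at 47.3 ± 3.47 CPM in treated and 31.9 ± 2.49 CPM in vehicle neurons (0.57), and at -0.13 with an offset for effective length.

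Glycogen genes showed no rise among the 13 tested, and 8 were lower (median -0.25), against 30.2% of all genes lower. PGM2 (-1.19) and PGM2L1 (-1.13), of the phosphoglucomutase family, had the smallest adjusted p of them, with PGM2L1 at 68.3 ± 8.57 CPM in treated and 149.5 ± 5.70 CPM in vehicle neurons. PGM1, of the same family, did not pass with all libraries (-0.16, adjusted p = 0.0761) and passed without vehicle replicate 2 (-0.22, adjusted p = 0.00584). It is named after its values were seen. In the pentose phosphate pathway 3 of 9 tested genes were higher and 1 lower (median 0.11), against 27.7% and 30.2% of all genes. Transketolase TKT was at 348 ± 32.8 CPM in treated and 194 ± 24.3 CPM in vehicle neurons (0.85), RPE was higher (0.39), and SHPK, a sedoheptulose kinase, was lower (-0.55). Among 10 genes of the shuttles that carry NADH equivalents into the mitochondrion, 3 were higher and 3 lower (median -0.07), near the 27.7% and 30.2% of all genes. The malate-aspartate shuttle enzymes GOT1 (0.92) and MDH2 (0.19) were higher, and GPD2 (-0.72) and GPD1L (-0.81), of the glycerol phosphate route, were lower. GOT2 (-0.50), the mitochondrial enzyme of the malate-aspartate shuttle, was lower too, and is named after its values were seen.

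Of 20 regulators of the pathway, 4 were higher and 5 lower (median 0.03), against 27.7% and 30.2% of all genes. EPAS1, a hypoxia-inducible factor subunit, was higher at 1.16 ± 0.0891 CPM in treated and 0.450 ± 0.0442 CPM in vehicle neurons (1.37). HIF1A, a far more abundant subunit gene, had 216 ± 11.9 CPM in treated and 248 ± 48.9 CPM in vehicle neurons. It did not pass (-0.20, adjusted p = 0.174), and is named after its values were seen. The coactivator PPARGC1A was higher by 0.76. ARRDC4, which is induced by glucose and limits its uptake, was lower at 8.58 ± 1.67 CPM in treated and 24.2 ± 2.41 CPM in vehicle neurons (-1.495). MYC, a transcriptional activator of glycolytic genes, was lower at 45.2 ± 4.91 CPM in treated and 118 ± 20.7 CPM in vehicle neurons (-1.39). Whether reads of the v-myc transgene are counted in MYC was not tested.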

How the data were processed

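RNA was extracted on silica columns and 1.3 µg entered KAPA mRNA libraries, per the labels' protocols. The series text names 4 technical replicates per batch, and each group holds 1 library per differentiation number. The authors deposited estimated counts, effective lengths and TPM per gene and per transcript, per the file headers. The deposited TPM values divide by effective length and add up to the same total in every library. The authors' deposited comparison table gives, per coding gene, a normalised signal per library of unnamed unit, a log2 fold change and both a raw and an adjusted p-value, and its signal was not used here. HISAT2, SAMtools, StringTie and hg38 are named without versions per the submitters' processing notes, while the sources used here name neither the quantifier nor its use of strand.

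Estimated counts were rounded. In R 4.3.3, edgeR 4.0.16 tested treated against vehicle (filterByExpr, TMM, quasi-likelihood F-test, no block) over all genes, with Benjamini-Hochberg adjustment and a threshold of 0.05. Each SE is the size of the log2 fold change divided by the root of F. CPM uses TMM-scaled library sizes. Shares of summed TPM were compared by exact permutation. Transcript usage was tested by diffSpliceDGE (Simes) on transcripts that reached 10 reads in 4 or more libraries. DESeq2 1.42.0 was an alternative, with other scalings, filters, length offsets, coding transcripts alone, added pseudogenes, a block and each library left out. Scripts were tested on simulated data. Types, exons and coordinates came from GENCODE release 29. Motifs were searched on both strands of the first RefSeq window per gene.

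The members and lists were chosen with earlier results of these data known. All 31 members are named, with PKM and 5 members of smallest adjusted p for transcript usage and up to 2 rising and 2 falling genes of smallest adjusted p per list, of which 1 gene is not reported here. Batches are independent by the series text. Library pairs of a group differed beyond sampling noise, with 13.9 to 434 as chi-square over its degrees of freedom. Each SD reflects the spread between 4 libraries a group. Each SE comes from the edgeR fit, which moderates the spread of a gene with that of other genes.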

Additional observations from a re-analysis of the deposited data

Results flagged for a closer look

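Of 102 sets of 4 libraries examined (31 genes in CPM and 20 shares, in each group), 9 held a library far from the other 3 of its group by Dixon's criterion, which chance meets in about 1 of 20 sets. Vehicle replicate 2 was the distant library in 7 of them. In that library PFKL was at 33.7 CPM (50.2 to 51.0 CPM in the other vehicle libraries), PFKM at 134 CPM (174 to 175), PFKFB3 at 105 CPM (147 to 149.7), PFKFB4 at 12.2 CPM (15.7 to 16.4) and ALDOC at 21.5 CPM (24.2 to 24.5). Its LDHB share was 69.0% (75.3 to 75.9% in the other vehicle libraries) and its PKM1 share 11.5% (13.9 to 14.2%). The same library carried the highest share of mtDNA reads, and the part of that in these values was not tested. SLC2A3 in vehicle replicate 3, at 38.4 CPM, lay above the other vehicle libraries (33.2 to 34.1 CPM) and below all treated libraries. The PDK2 share in treated replicate 5 was 59.6%, against 67.2 to 68.4% in the other treated libraries.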

How the results depend on the processing

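Calls held under every alternative for SLC2A3, HK2, ALDOA, SLC16A7 and PDP2 (higher) and for GPI, PFKFB3, SLC16A1, PDK2, PDK3 and PDP1 (lower), 11 of the 18 genes called. Members called numbered 14 to 20 over the alternatives. With library totals as the only scaling, which moves the median of all genes by -0.10 on the log2 scale, 5 members were higher and 11 lower, against 21.6% and 35.5% of all genes. Directions turned for PFKFB2 with a length offset (0.0913), for PGK1 with library totals (-0.0811), with coding transcripts alone (-0.0149) and without vehicle replicate 2 (-0.0663, and up to 0.0603 with other libraries left out), and for TIGAR with a length offset (-0.13), and none of these values passed. Differences in share turned for PDK3 from reads not scaled by length (-0.666 points). With 1 library left out they ran from -0.393 to 1.47 points for PDK3, from -0.825 to 0.00137 for ENO2 and from -1.12 to 0.137 for SLC16A3, turning without vehicle replicate 2 for PDK3 and ENO2 and without vehicle replicate 3 for SLC16A3. Leaving out 1 library gave 0 to 12 shares past the threshold and 1 to 5 members with changed transcript usage, and 1 member passed for usage with at least 50 reads, LDHA. Of 25 genes that the naming rule takes from the other lists, whose alternatives were added after seeing the data, 19 kept their call. PC and G6PC3 lost it with coding transcripts alone, PPARGC1A with a length offset and MDH2 in 6 settings. The cause of these changes was not tested. Coding transcripts alone gave no value for SLC2A1, LDHB, PDK3 and MYC, whose reads lie mostly or in good part on transcripts that release 29 does not hold.

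With a replicate block for the differentiation number, 10764 genes and 17 members (7 higher, 10 lower) passed, TPI1 being the call lost, and 2 members passed for transcript usage, GPI and SLC16A1. Whether the numbers pair treated and vehicle cells is not stated, so the main test used no block. Deviations of same-numbered libraries from their group means had correlations of -0.080 to 0.032. With 4 libraries a group and vehicle replicate 2 far from the others, these values cannot exclude pairing. For shares, a paired sign-flip test of 4 pairs cannot go below 0.125 and was not run.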
